A study of Sus scrofa with 8 samples.

Results

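Distal H3K4me3 peaks that also carried H3K27ac were described in pig embryonic fibroblasts (PEFs), connective tissue cells that were cultured from fetuses of the Large White breed at 35 days. All libraries came from untreated PEFs, and there was no other condition. Chromatin immunoprecipitation sequencing (ChIP-seq), in which DNA bound by an antibody's target is pulled down and sequenced, gave 2 replicates for each of H3K4me3 (antibody ab8580), H3K27ac (ab4729) and the DNA-binding protein CTCF (A1133). Nothing in the labels says that the replicates came from separate cultures, so their spread may be technical, and the antibodies enrich a mark without counting molecules. The regions were chosen by the presence of peaks and by position. Each was a peak of H3K4me3 replicate 1 on chromosomes 1 to 18 or X, narrower than 5 kb, that overlapped a peak of H3K4me3 replicate 2 and of both H3K27ac replicates by at least 1 bp. It lay more than 5 kb from the transcription start site (TSS) of every RefSeq gene and more than 1 kb from every annotated transcript start. In all, 11755 of 37495 H3K4me3 replicate 1 peaks on these chromosomes (31.4%) met the rule, and they are called distal H3K4me3/H3K27ac regions here.

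H3K4me3 is the trimethylation of lysine 4 on histone H3. It is laid down by the SET1 and MLL methyltransferase complexes, whose CXXC-domain subunits bind unmethylated CpG dinucleotides, and it is best known from active promoters, where CpG islands lie. H3K27ac, the acetylation of lysine 27, is written by the acetyltransferases p300 and CBP and marks active enhancers as well as active promoters. Enhancers more often carry H3K4me1, which was not measured here, and in fibroblasts many are bound by AP-1, a dimer of FOS and JUN proteins, and by TEAD factors, the partners of YAP. A distal H3K4me3 peak can also lie at a promoter that the annotation lacks.

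The sequences of 5 regions are printed to show the range of DNA that the regions hold. Each is 300 bases of Sscrofa11.1, 150 bases on either side of the H3K4me3 replicate 1 summit, given 5′ to 3′ on the plus strand. The first 2 are the regions with the highest mean H3K4me3 fold enrichment over both replicates among those with a CpG island, which was taken as any 200-bp window of at least 50% GC with an observed over expected CpG ratio of at least 0.6. The capitals mark every CpG, of which there were 23 and 30.
Upstream of CPLX1, chr8:195273-195572: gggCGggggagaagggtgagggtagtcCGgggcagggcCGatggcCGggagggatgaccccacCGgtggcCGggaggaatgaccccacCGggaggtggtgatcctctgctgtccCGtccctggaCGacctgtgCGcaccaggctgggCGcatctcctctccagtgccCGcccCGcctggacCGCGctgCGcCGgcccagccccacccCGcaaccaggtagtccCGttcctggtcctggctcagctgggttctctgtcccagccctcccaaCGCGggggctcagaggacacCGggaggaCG
Intron of PRDM2, chr6:73173089-73173388: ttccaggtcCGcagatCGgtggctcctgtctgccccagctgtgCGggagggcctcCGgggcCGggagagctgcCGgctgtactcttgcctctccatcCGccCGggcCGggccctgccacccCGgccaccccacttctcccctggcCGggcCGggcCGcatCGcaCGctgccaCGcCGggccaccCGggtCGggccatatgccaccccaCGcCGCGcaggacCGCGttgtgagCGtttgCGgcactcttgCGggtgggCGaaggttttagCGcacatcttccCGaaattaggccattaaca
The next 2 have the highest mean H3K4me3 fold enrichment among regions without an island and with an AP-1 match, TGANTCA, which is in capitals.
Intron of LOC102159901, chr5:91510945-91511244: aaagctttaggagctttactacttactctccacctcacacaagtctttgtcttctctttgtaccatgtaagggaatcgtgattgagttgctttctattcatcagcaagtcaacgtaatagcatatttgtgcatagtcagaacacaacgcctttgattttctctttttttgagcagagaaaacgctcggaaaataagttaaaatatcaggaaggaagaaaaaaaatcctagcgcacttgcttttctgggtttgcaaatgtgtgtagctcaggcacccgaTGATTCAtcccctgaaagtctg
Intron of ROBO1, chr13:176088817-176089116: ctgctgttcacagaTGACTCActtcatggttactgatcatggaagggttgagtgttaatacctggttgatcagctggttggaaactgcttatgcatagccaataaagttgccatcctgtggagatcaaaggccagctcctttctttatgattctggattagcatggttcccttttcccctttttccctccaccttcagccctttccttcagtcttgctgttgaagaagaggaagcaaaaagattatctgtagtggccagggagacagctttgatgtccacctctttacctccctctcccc
The last has the highest mean CTCF fold enrichment among the regions with a match to the CTCF core motif, which is in capitals.
Near LOC110260126, chr3:101820796-101821095: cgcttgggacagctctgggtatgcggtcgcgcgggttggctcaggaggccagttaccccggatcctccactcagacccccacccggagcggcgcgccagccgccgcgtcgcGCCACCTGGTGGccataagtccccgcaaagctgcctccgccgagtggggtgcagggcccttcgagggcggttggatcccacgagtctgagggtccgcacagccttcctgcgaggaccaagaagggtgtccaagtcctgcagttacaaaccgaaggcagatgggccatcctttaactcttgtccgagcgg

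These sequences were picked for high levels, and their windows differed in GC content. The CpG ratio did not separate the CPLX1 window from that of LOC102159901. The PRDM2 window had a GC content of 70.3% and a CpG observed over expected ratio of 0.817, and the region, in an intron of this histone methyltransferase gene, had H3K4me3 fold enrichments over the control of 77.3 and 40.6 in replicates 1 and 2. The CPLX1 window, 35.7 kb from the TSS of a gene for a protein of synaptic vesicle fusion, had a GC content of 72.3% and a ratio of 0.586, and its H3K4me3 fold enrichments were 85.2 and 35.0. The LOC102159901 window had a GC content of 39.7% and a ratio of 0.594, with H3K4me3 fold enrichments of 41.0 and 27.5 and CTCF fold enrichments of 30.4 and 30.3. The ROBO1 window had no CpG at all. ROBO1 encodes a receptor for SLIT guidance proteins. Its region stood apart between the H3K4me3 replicates, at 6.12 and 41.5, and the stronger replicate 2 peak had its summit outside the region.

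The data behind these values were peak lists of 37932 and 43516 H3K4me3, 74983 and 81164 H3K27ac, and 40289 and 44682 CTCF peaks. The lists give no read counts, so the depth behind a peak is unknown from them and no counting interval was computed. As a check of the cell label, 12 of 12 fibroblast markers, among them COL1A1, PDGFRA and TWIST1, had H3K4me3 and H3K27ac peaks of both replicates within 1 kb of the TSS. So did 1 of 4 epithelial markers (CLDN4) and 1 of 3 neural markers (NEUROG2), and 0 of 4 markers each of endothelium, blood and muscle.

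H3K4me3 was weak in most of the regions, while H3K27ac was not. The fold enrichment of the strongest overlapping peak served as the level in each library. The median H3K4me3 level was 5.38 and 5.60 in the 2 replicates, or 5.49 ± 0.154 (SD, n = 2), and the middle 50% of regions lay between 3.98 and 8.81 and between 4.15 and 8.37. The 9611 peaks of the same kind within 1 kb of a gene TSS had medians of 53.5 and 25.8, both above those of the regions, although these 2 libraries were far apart there. The 3892 distal H3K4me3 peaks without H3K27ac in either replicate had medians of 5.74 and 5.30, so that the order of the distal sets changed with the replicate. For H3K27ac the regions had medians of 9.24 and 9.55, or 9.40 ± 0.221 (SD, n = 2). The TSS peaks had 15.3 and 17.9, and the 28990 distal H3K27ac peaks without H3K4me3 had 4.08 and 4.33. The units differ, as 1513 regions (12.9%) shared their main H3K27ac replicate 1 peak with another region, while each distal H3K27ac peak counted once. These lists chose the regions and the sets they are compared with, so the levels are a description and were not tested.

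**Figure D1:**
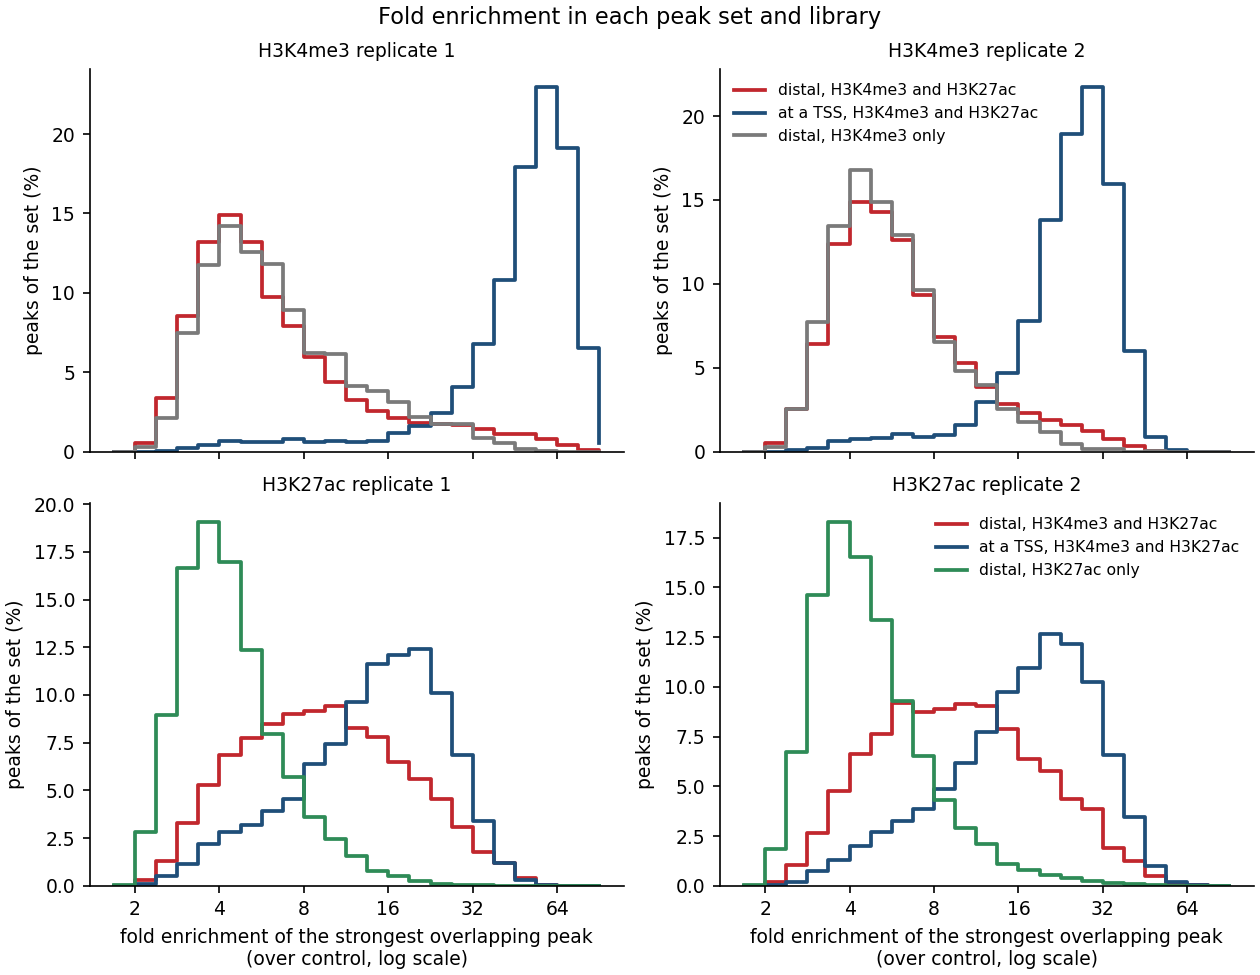
Fold enrichment over the control (x axis, log scale) of the strongest overlapping peak, as the percentage of each peak set (y axis), with a panel for each H3K4me3 and H3K27ac library. The distal regions with both marks lie with the other distal peaks in H3K4me3, at medians of 5.38 and 5.60, and between the distal H3K27ac peaks and the TSS peaks in H3K27ac, at 9.24 and 9.55.

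The ratio of the marks was the reverse of that at a TSS. H3K4me3 fold enrichment exceeded that of H3K27ac in 31.5% and 28.9% of the regions by replicate 1 and 2, while it did so in 95.9% and 75.4% of the TSS peaks. In 2570 regions (21.9%) H3K4me3 was the higher in both replicates. Few regions reached the level of a typical TSS, as 166 (1.41%) and 320 (2.72%) were at or above the median of the TSS peaks. Across regions, the levels of replicates 1 and 2 were correlated with a Spearman's rho of 0.719 for H3K4me3 and 0.922 for H3K27ac. The rho between the marks was 0.0761 in replicate 1 and 0.123 in replicate 2. These values are across 11755 regions of the same libraries, which are not replicates.

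The regions were narrower than TSS peaks, as the other distal sets were. Their median width was 887 bp, compared with 2626 bp for the TSS peaks. It was 695 bp for distal H3K4me3 peaks without H3K27ac and 1077 bp for distal H3K27ac peaks without H3K4me3. The H3K27ac peak that overlapped a region most was wider than the region in 83.9% and 83.5% of cases, with a median width of 2264 and 2214 bp. The median distance from the H3K4me3 replicate 1 summit was 116 bp to that of H3K4me3 replicate 2, 182 bp to that of H3K27ac replicate 1 and 167 bp to that of H3K27ac replicate 2. A wide peak can lend its level to a region whose own signal is lower. The summit of H3K4me3 replicate 2 lay inside 88.0% of the regions, and those of the H3K27ac replicates inside 75.3% and 76.2%. The median H3K27ac level was 8.724 and 9.0 where the summit was inside and 11.4 and 12.1 where it was outside. In 685 regions (5.83%) at least 1 overlapping peak of these 3 libraries came within 5 kb of a gene TSS.

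**Figure D2:**
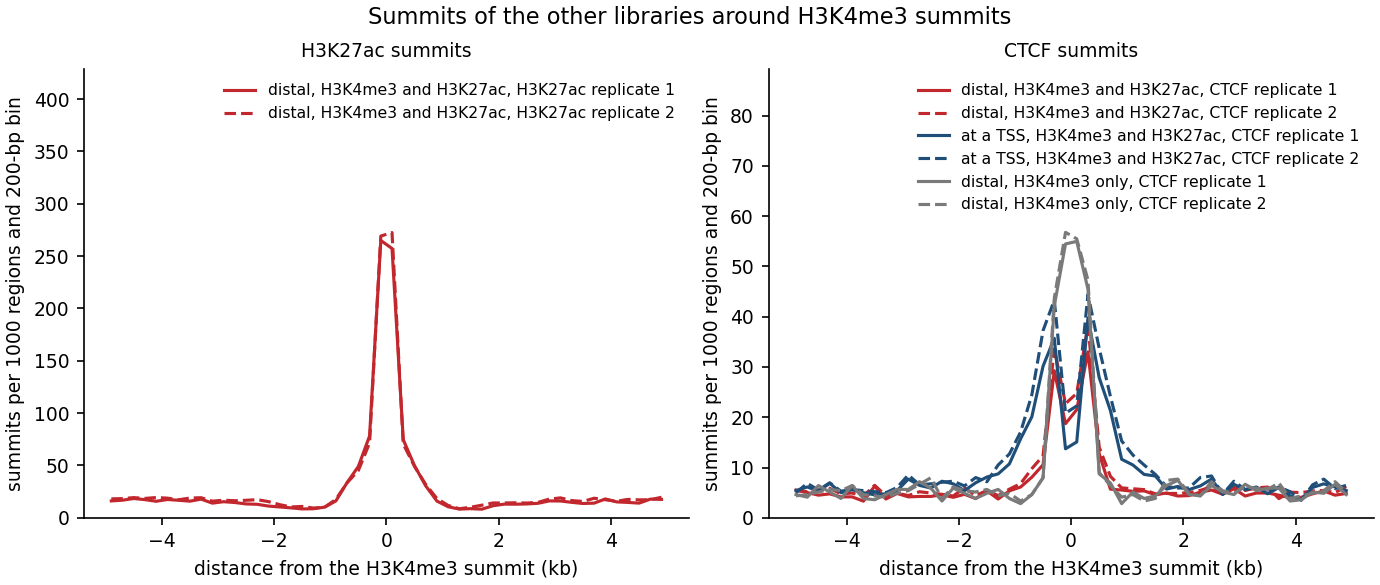
Summits of H3K27ac (left) and CTCF (right) per 1000 regions in 200-bp bins (y axis) by distance from the H3K4me3 replicate 1 summit (x axis, kb), with solid and dashed lines for replicates 1 and 2. H3K27ac summits of the distal regions with both marks reached 265 and 272.5 per 1000 in the highest bin, and CTCF summits were more frequent 200 to 400 bp from the H3K4me3 summit than next to it, as they were around TSS peaks with both marks (blue) and were not around distal H3K4me3 peaks without H3K27ac (grey). The left panel shows H3K27ac around the distal regions alone.

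The DNA of the regions lay between that of promoters and that of distal H3K27ac peaks. None of the sequence measures was used in the rule. A CpG island lay in 4124 regions (35.1%), against 63.2% of all H3K4me3 replicate 1 peaks, 96.3% of the TSS peaks, 59.6% of the distal H3K4me3 peaks without H3K27ac and 20.8% of the distal H3K27ac peaks without H3K4me3. Since a wide peak has more room for an island, the share was also taken in the 300-bp windows around the summits, where it was 20.2%, 83.5%, 45.1% and 4.74% in the regions and the latter 3 sets. A stricter island (500 bp, 55% GC, ratio 0.65) was present in 13.8%, 90.6%, 28.1% and 1.47% of the peaks. The median GC content of these windows was 48.3%, 66.0%, 53.3% and 45% in the same order. On average, 15.1% of the bases of a window were masked as repeats, compared with 23.7% around distal H3K27ac summits. The share was 11.6% in all H3K4me3 replicate 1 peaks, 12.2% in distal H3K4me3 peaks without H3K27ac and 7.1% in TSS peaks. Of the windows of the regions, 4.27% were mostly repeat, against 2.61% of those of all H3K4me3 replicate 1 peaks.

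Motifs were counted as exact matches on either strand of the 300-bp windows. AP-1 (TGANTCA) was matched in 14.7% of the regions, against 8.7% of all H3K4me3 replicate 1 peaks. The share was 14.1% for distal H3K27ac peaks without H3K4me3, 8.45% for distal H3K4me3 peaks without H3K27ac and 2.73% at TSSs. The windows of distal H3K27ac peaks were centred on the H3K27ac summit, those of the other sets on the H3K4me3 summit. With the windows of the regions also centred on the H3K27ac replicate 1 summit, AP-1 was matched in 11.4% of them, below the distal H3K27ac peaks, so that the order of these sets turned with the choice of summit. TEAD (GGAATG) was matched in 18.3%, compared with 16.3% and 16.4% of the other distal sets, and NFI (TTGGCA) in 17.7%, compared with 16.3% and 15.5%. On the H3K27ac summit, a window that was tried for the motifs other than AP-1 after the data had been seen, TEAD and NFI were matched in 15.98% and 15.9% of the regions, slightly below the distal H3K27ac peaks. RUNX (TGTGGT), the motif of a family of mesenchymal and blood factors, was matched in 19.1% of the regions, below the 25.5% of distal H3K27ac peaks without H3K4me3 and above the 14.1% of those with H3K4me3 only. The GC-rich promoter motifs GC box, NRF1 and ETS were more frequent in the regions than in distal H3K27ac peaks, also on the H3K27ac summit (16.9%, 0.596% and 2.38% of the regions). The GC box (GGGCGG), which SP1 binds, was matched in 18.5% of the regions, 6.43% of distal H3K27ac peaks, 30.9% of distal H3K4me3 peaks without H3K27ac and 58.2% of TSS peaks. NRF1 (GCGCANGCG) was matched in 0.808%, 0.0621%, 1.67% and 2.88%, and ETS (CCGGAAG) in 2.60%, 1.28%, 3.49% and 6.99% of the same sets. An E-box (CAGCTG) was matched in between 15.8% and 20.1% of the sets, the regions being at 19.5%, and CRE (TGACGTCA) in 0.264% of the regions and 0.299% of all H3K4me3 replicate 1 peaks. The TATA box word (TATAAA) did not follow the GC-rich promoter motifs, as it was matched in 15.3% of the regions, 19.3% of distal H3K27ac peaks, 11.2% of distal H3K4me3 peaks without H3K27ac, 2.59% of TSS peaks and 8.91% of all H3K4me3 replicate 1 peaks. None of these words contains another, a match is not a bound site, and the shares move with the base composition of the windows.

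**Figure D3:**
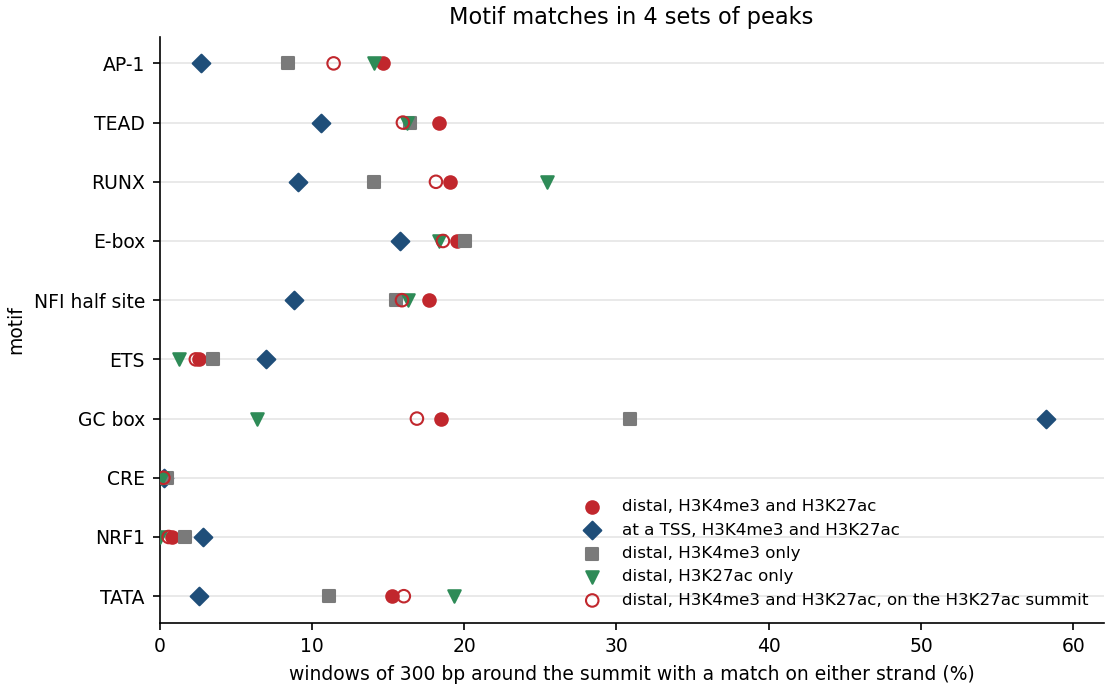
Percentage of 300-bp windows around the summit with a match to each motif (x axis) for 10 motifs (y axis) in 4 sets of peaks. Windows lie on the H3K4me3 summit, or on the H3K27ac summit for distal H3K27ac peaks and the open circles. For AP-1 the distal regions with both marks are at 14.7% on the H3K4me3 summit and 11.4% on the H3K27ac summit, on either side of the distal H3K27ac peaks (14.1%), and for the GC box they lie between those and the TSS peaks (18.5%, 6.43% and 58.2%).

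Within the set, the regions changed in a graded way with the H3K4me3 level. They were divided into 7 classes of fold enrichment in replicate 1, with limits set after the values had been seen. From the 3015 regions under 4 to the 661 regions of 30 or more, the share with a CpG island went from 11.4% to 98.6%, and the share of summit windows with an island from 5.37% to 87.1%. The share with an AP-1 match went the other way, from 19.1% to 3.03%, and fell from each class to the next. The GC box went from 6.97% to 66.6% and RUNX from 22.6% to 8.47%. The median width went from 546 to 1977 bp. H3K27ac moved less in these classes of replicate 1, with medians of 8.63 and 8.49 in the lowest class and 11.3 and 13.2 in the highest. The regions of 30 or more were less often intronic (32.2%, compared with 63.7% under 4), and their median distance from a TSS was 18.04 kb, compared with 37.8 kb.

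The island and AP-1 shares moved in the same directions with replicate 2, taken over the 10341 regions that held its summit. From under 4 (1959 regions) to 30 or more (98 regions), an island was present in 24.8% and 95.9%, and an AP-1 match in 17.9% and 2.04%. H3K27ac rose further than in the classes of replicate 1, from medians of 7.95 and 8.49 under 4 to 17.2 and 20.8 at 30 or more. Its medians were 11.6 and 13.2 between 20 and 30. The median GC content of the windows rose from class to class with replicate 1, from 44% to 66.7%, whereas with replicate 2 it fell from 49.7% to 46.3% before it rose to 64.3%. The AP-1 share was also compared within 6 classes of GC content, between regions under 5 and regions of 10 or more in replicate 1 alone. GC content could still vary within a class, and its part in the AP-1 share was not tested. The AP-1 share was higher in the weaker regions in each of the 6 classes, by the least in the class from 45% to 50% GC (17.6% and 11.8%) and at 20.8% and 11.5% under 40% GC. Among the 7631 regions without an island, the AP-1 share was 17.6%, and among those with an island it was 9.34%. The CpG ratio of the window was correlated with H3K4me3 level across regions (rho = 0.450 and 0.280 in replicates 1 and 2) but not in the same direction with H3K27ac level (rho = -0.109 and -0.0412).

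**Figure D4:**
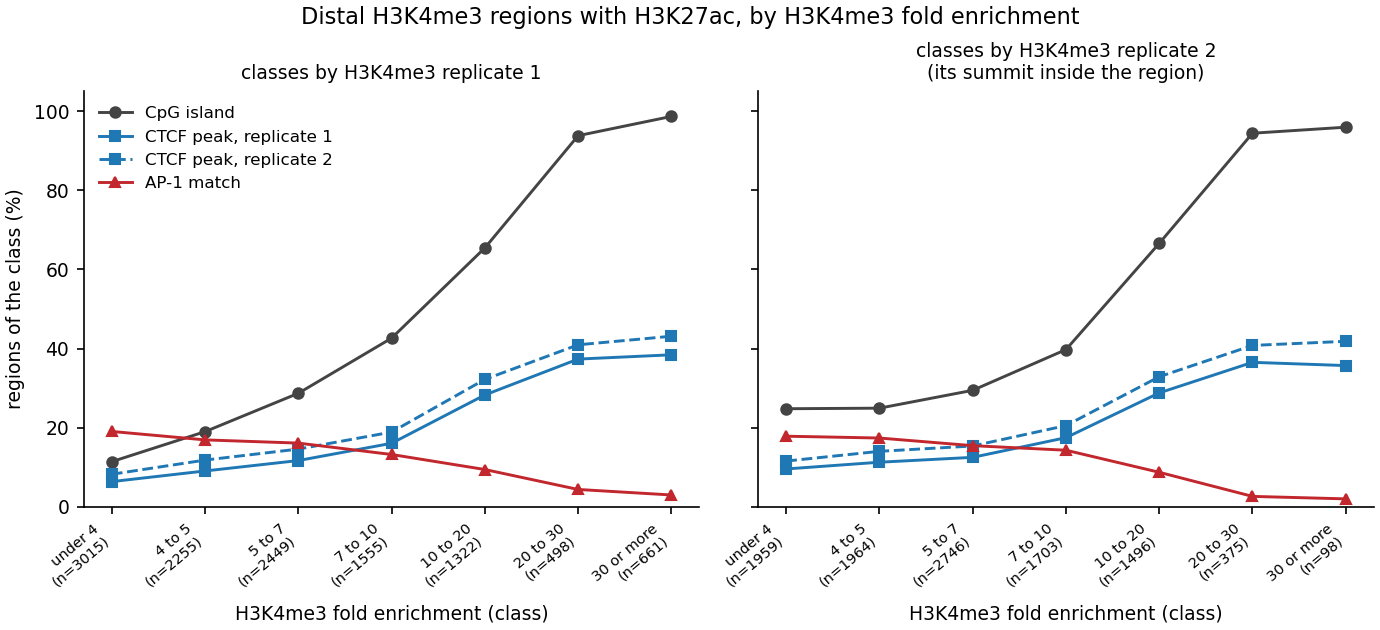
Percentage of distal H3K4me3/H3K27ac regions (y axis) with a CpG island, a CTCF peak of replicate 1 or 2, or an AP-1 match, in classes of H3K4me3 fold enrichment (x axis, with the number of regions), for replicate 1 (left) and replicate 2 (right). The island share goes from 11.4% to 98.6% on the left and the AP-1 share from 19.1% to 3.03%.

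CTCF binds insulators and loop anchors, and also many promoters. A CTCF peak overlapped 14.9% of the regions in CTCF replicate 1 and 17.7% in replicate 2, or 16.3% ± 2.01 (SD, n = 2), and 1713 regions (14.6%) had a peak in both. Among all H3K4me3 replicate 1 peaks the shares were 21.9% and 25.4%. They were 22.9% and 23.9% for distal H3K4me3 peaks without H3K27ac, 28.5% and 34.3% for TSS peaks, and 8.17% and 9.46% for distal H3K27ac peaks without H3K4me3. By overlap, each of these sets differed from the regions in the same direction in both CTCF libraries, by more than the SD between the libraries. With 2 libraries, an exact two-sided permutation test over pairs cannot give a p under 0.5, so none is given. The width of a peak enters these shares. Within 250 bp of the H3K4me3 summit, a CTCF summit was found in 6.202% and 7.24% of the regions, 15.5% and 15.8% of the distal H3K4me3 peaks without H3K27ac, and 4.93% and 6.64% of the TSS peaks. Among all H3K4me3 replicate 1 peaks it was found in 7.56% and 8.665%, a smaller gap to the regions than by overlap. With this fixed window the regions and the TSS peaks differed by about as much as the libraries did, and their order cannot be resolved.

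CTCF summits were present at the H3K4me3 summit of the regions but were more frequent beside it. In the 200-bp bins next to the summit there were 18.7 and 21.5 CTCF replicate 1 summits per 1000 regions, and in the bins from 200 to 400 bp on either side there were 29.3 and 33.0. Replicate 2 gave 22.7 and 24.8, and 33.6 and 38.4. From 400 to 600 bp the number fell to 10.55 and 12.8 in replicate 1. The TSS peaks had the same dip, with 13.7 and 15.1 next to the summit and 35.7 and 39.8 from 200 to 400 bp in replicate 1, and with 20.8 and 22.3, and 43.3 and 44.4, in replicate 2. Around distal H3K4me3 peaks without H3K27ac the bins next to the summit held 54.47 and 54.98 in replicate 1, and no such dip was seen. CTCF overlap rose with H3K4me3 level in replicate 1, from 6.40% and 8.26% under 4 to 38.4% and 43.1% at 30 or more, along with the width of the regions. With the fixed window of 250 bp the shares rose from 2.65% and 3.05% under 4 to 18.3% and 19.5% between 20 and 30 and were lower again, at 9.53% and 11.5%, at 30 or more. In classes of H3K4me3 replicate 2 they were highest between 10 and 20 (11.97% and 13.4%) and at 5.10% and 6.12% in the 98 regions of 30 or more. Among regions without an island the overlap also rose in classes of replicate 1, from 6.14% and 7.83% under 4 to 20.1% and 24.3% between 10 and 20. Above that, 31 and 9 regions without an island remained in the last classes. In classes of H3K4me3 replicate 2 the rise was smaller, from 8.89% and 10.7% under 4 to 15.0% and 18.8% between 10 and 20. Width enters these overlaps, and the fixed window was not taken for regions without an island.

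The regions with the highest CTCF levels included some with and some without an island. The strongest lay 9.66 kb from ARF6, a small GTPase of membrane traffic, with CTCF fold enrichments of 88.9 and 91.6, H3K4me3 of 25.3 and 15.8 and H3K27ac of 24.4 and 28.1. Next came a region in an intron of ITGA1, the alpha 1 subunit of a collagen-binding integrin, with CTCF at 78.0 and 91.8 and no island. Its H3K4me3 was 8.82 and 15.3. The region near LOC110260126, whose CTCF core is printed above, had CTCF at 73.6 and 86.9 and H3K4me3 at 30.2 and 17.2. The other 2 were in introns of LOC106504720 and LOC102166310, with CTCF between 69.0 and 97.5 and H3K4me3 between 5.41 and 8.12. The core motif was a strict one, matched in 34 of the regions and in 17.6% and 16.2% of all CTCF peak windows, so that a region without a match may still hold a weaker form of it.

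The strongest regions in H3K4me3 had fold enrichments at the height of TSS peaks. After CPLX1 and PRDM2, the list of the 10 highest held regions in introns of LOC106508676, of BMS1, a ribosome biogenesis GTPase, of DEPTOR, an inhibitor of mTOR, and of the zinc finger gene ZNF862. It also held regions in exons of ATP9B, a phospholipid flippase, and SYNPO2L, an actin-associated protein, and intergenic ones near EVA1A, a regulator of autophagy, and LOC106505679. Replicate 1 ranged from 70.5 to 85.4 and replicate 2 from 29.9 to 45.3, and every one of the 10 was lower in replicate 2. All 10 had an island and none had an AP-1 match. Their H3K27ac was between 8.11, at DEPTOR, and 41.0. The region in DEPTOR was closest to the TSS of its neighbour DSCC1, at 13.6 kb.

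The regions with the highest H3K27ac were not the same. A region in an intron of C14H12orf49, 146 kb from the TSS of MED13L, a subunit of the Mediator kinase module, had H3K27ac at 64.6 and 54.8 and H3K4me3 at 22.3 and 13.7. A region 7.36 kb from BBC3, which encodes the pro-apoptotic protein PUMA, had H3K27ac at 50.4 and 65.6, H3K4me3 at 59.3 and 21.6 and CTCF at 32.1 and 44.3. A peak that overlapped this region, and another that overlapped the highest region by mean, near LOC106508501 (54.9 and 67.1), came within 5 kb of a TSS. A region in an intron of LOC106506054 had H3K27ac at 55.8 and 58.1. The fifth, near LOC102167686, had H3K27ac at 53.2 and 54.8, and H3K4me3 at only 6.52 and 3.43. For the regions near LOC106508501 and LOC102167686, the H3K27ac summits of both replicates lay outside the region.

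The widest regions lay in introns of CDK6, a kinase of the G1 phase (4960 bp), and SH3PXD2A, a scaffold of podosomes (4935 bp), over an exon of DNAJB4, a chaperone (4929 bp), and in intergenic DNA near LOC110257572 (4912 bp) and AGO2, the Argonaute that cuts RNA (4907 bp). Their H3K4me3 fold enrichments were between 12.9 and 50.3 in replicate 1 and between 13.0 and 34.7 in replicate 2. The width limit left out 57 further peaks that met the rest of the rule, the narrowest of which had a width of 5017 bp and fold enrichments of 16.9 and 10.1. At the limit of distance, the 2 nearest regions lay 5001 bp from PRKCD and from NFATC4, with H3K4me3 at 20.5 and 13.4 and at 4.64 and 4.19. The 2 peaks just inside the limit, at 4999 bp from CALCOCO2 and 4994 bp from LOC100515049, had 4.51 and 3.13 and 4.37 and 5.67, respectively.

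In the genome, the regions were mainly in introns. The summit was in an intron in 6746 regions (57.4%), in an exon in 584 (4.97%) and between genes in 4425 (37.6%). Of all H3K4me3 replicate 1 peaks, 50.9% were in introns, 20.8% in exons and 28.3% between genes. In introns lay 65.0% of the distal H3K27ac peaks without H3K4me3 and 36.8% of the distal H3K4me3 peaks without H3K27ac. Of the intronic regions, 31.9% were in the first intron. First introns held 18.3% of all the regions, against 27.8% of all H3K4me3 replicate 1 peaks. The nearest TSS was at a median of 33.1 kb, and 2093 regions (17.8%) were more than 100 kb from any TSS. The median was 37.2 kb for distal H3K27ac peaks without H3K4me3 and 29.8 kb for distal H3K4me3 peaks without H3K27ac. In 40.3% of the regions the summit lay upstream of the nearest TSS, against 33.2% of all H3K4me3 replicate 1 peaks. Intergenic regions had an island more often than intronic ones (40.4% and 29.99%) and overlapped CTCF more often (18.7% and 22.0% compared with 11.8% and 14.3%). Chromosome X held 1.41 regions per Mb, and the autosomes between 4.004 and 8.36, with chromosome 12 the densest. As a share of the H3K4me3 replicate 1 peaks of a chromosome, the regions were 25.7% on chromosome 12, 38.6% on chromosome 16, the highest, and 17.7% on chromosome X.

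The nearest gene had both marks of both replicates within 1 kb of its TSS in 56.0% of the regions, against 60.4% of all H3K4me3 replicate 1 peaks. Of all genes, 47.0% had such a TSS. The share was 57.8% for distal H3K27ac peaks without H3K4me3 and 33.6% for distal H3K4me3 peaks without H3K27ac. With protein-coding genes only, it was 73.8% for the regions and 70.5% for all H3K4me3 replicate 1 peaks, while 58.9% of these genes had a marked TSS. In the class of 30 or more in H3K4me3 replicate 1 the share was 49.2%, and under 4 it was 57.1%. A distance along the DNA does not say which gene a region acts on.

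The regions were spread over many genes. They lay inside 3601 genes, of which 2109 held 1 region and 52 held 10 or more. These counts were not taken for other peak sets. By number, and named after the values were seen, the genes with most were ROBO1 with 20, FOXP1, a forkhead repressor, with 19, and HDAC9, a histone deacetylase, and MAML2, a coactivator of Notch, with 17 each. These genes are long, so that the density was between 1.65 and 4.48 regions per 100 kb. None of the regions in ROBO1 or MAML2 had an island, while 6 of 19 in FOXP1 did.

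Of the regions, 3603 (30.7%) had another within 10 kb, and they formed 1533 groups. The share was not taken for other peak sets, so it does not show that the regions cluster more than peaks in general. The largest group held 11 regions over 33.6 kb in PRRX1 (chr4:80451134-80484733), which encodes a homeodomain factor of limb and craniofacial mesenchyme. All 11 were weak in H3K4me3 replicate 1, between 2.81 and 5.01, and none had an island. In replicate 2 they lay under 7 peaks and ranged from 3.30 to 24.9. They lay under 1 H3K27ac peak in replicate 1 and 2 in replicate 2, so that their H3K27ac level of 36.1 at the median is largely a shared value. Next, with 8 regions each, were groups in ATXN1, in RAI1, in FGF7 and near MIR100. The group in FGF7, a growth factor that mesenchyme makes for epithelium, ranged from 3.04 to 5.96 in H3K4me3 replicate 1 and lay under 3 peaks of replicate 2, and its median level over both replicates was 14.2. In RAI1, a transcriptional regulator, 7 of 8 regions had an island and H3K4me3 in replicate 1 reached 46.7. The group near the microRNA gene MIR100 lay under 1 H3K27ac peak in each replicate, at a median of 44.1, and reached 57.6 in H3K4me3 replicate 1.

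Genes of fibroblast identity often had such a region nearby. A region lay within 100 kb of the TSS of 53.4% of all genes and 54.7% of protein-coding genes, and of 63.1% of protein-coding genes with a marked TSS, compared with 42.6% of those without. Among mesenchymal transcription factors it was 39 of 40 (RUNX2 being the exception), and the median number of regions was 3, compared with 1 for all genes. Among genes of the extracellular matrix it was 33 of 34, with a median of 4. Housekeeping genes were at 12 of 24 and genes of other lineages at 14 of 26, both near the share of all genes. Nearly all housekeeping genes (23 of 24) but 2 of 26 genes of other lineages had a marked TSS. A region within 100 kb of several genes counted for each of them. The lists are small and were chosen with earlier results of these data known, so that the counts are descriptive.

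**Figure D5:**
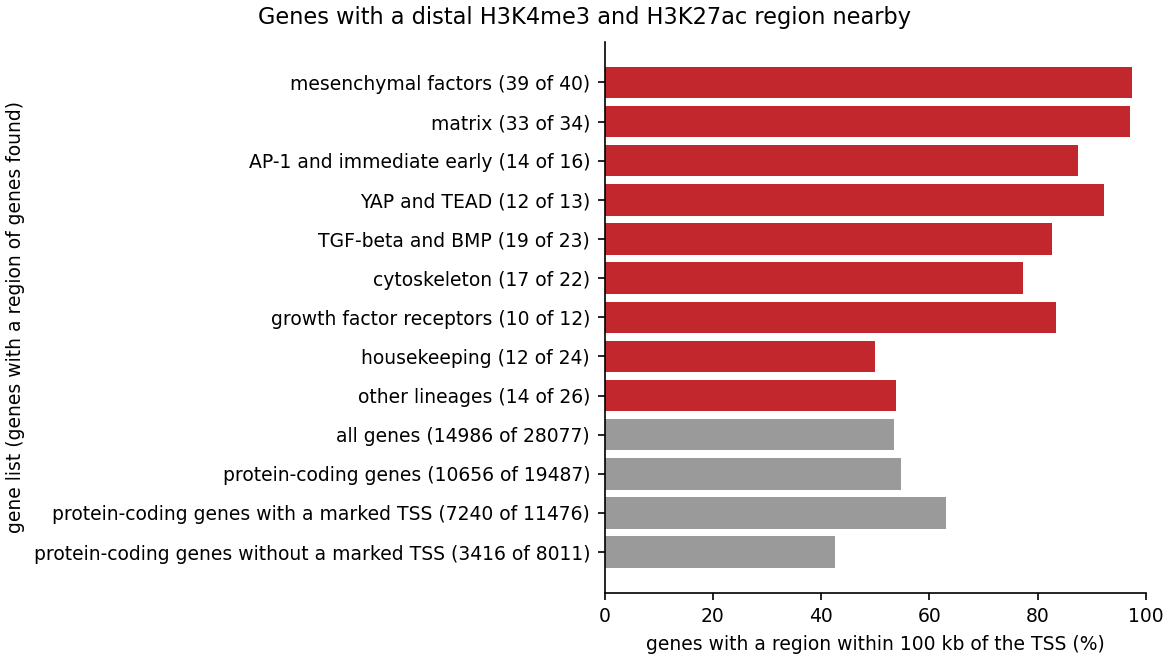
Percentage of genes with a distal H3K4me3/H3K27ac region within 100 kb of the TSS (x axis) for 9 gene lists (red) and for all annotated genes and protein-coding genes (grey), with counts in the labels. Mesenchymal factors (39 of 40) and matrix genes (33 of 34) lie at the top. Housekeeping genes (12 of 24) and genes of other lineages (14 of 26) are near the share of all protein-coding genes (54.7%).

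Among the mesenchymal factors, PRRX1 and its paralog PRRX2 each had 12 regions within 100 kb. They were unlike, as 9 of the 12 at PRRX2 had an island and none of those at PRRX1, and the highest H3K4me3 in replicate 1 was 20.5 and 5.38. NFIB, a nuclear factor I gene, had 9 regions, the highest at 34.1. EBF2 had 8 and CREB3L1, a regulator of collagen secretion, had 7. Of the matrix genes, COL1A2 and COL1A1, the chains of type I collagen, had 11 and 8, with the highest H3K4me3 in replicate 1 at 18.5 and 22.7. An island was present in 1 of the 11 and 6 of the 8. COL5A1, a chain of type V collagen, had 10 regions, of which 9 had an island, FBLN1 had 8 and COL4A1 had 7.

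By the share of genes with a region, signalling and cytoskeletal genes were between these lists and the background. By the median number of regions they were not all so, as it was 4 for the AP-1 and immediate early list, 3 for growth factor receptors and between 2 and 2.5 for the others. In the AP-1 and immediate early list, 14 of 16 genes had a region, led by NR4A1, an orphan nuclear receptor, with 8, followed by FOSB and IER2 with 6 each, JUN with 5 and JUND with 4. The 6 regions at FOSB all had an island, and 1 had an AP-1 match. For YAP and TEAD genes the count was 12 of 13, with 6 regions at AMOTL2, an inhibitor of YAP, and 6 at TEAD1, and 4 each at YAP1 and WWTR1. Genes of TGF-beta and BMP signalling gave 19 of 23, with 9 regions at ID1, a BMP target, 8 at the receptor gene TGFBR2 and 6 at SMAD7, an inhibitor of the pathway. BMP2, BMP4, ID2 and SMAD4 had none. Cytoskeletal genes gave 17 of 22, with 10 regions at CNN3, a calponin, and 8 at VCL, which encodes vinculin, while ACTA2, MYL9, PALLD, TAGLN and TPM2 had none. CNN1, the smooth muscle calponin, had 1 region, and CALD1 and TPM1 had 4 each. Receptors of growth factors gave 10 of 12, with 9 regions at EGFR, 6 at NRP2 and 4 each at EPHA2 and NRP1.

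Genes of other lineages also had regions nearby. EPCAM, an epithelial adhesion gene, and CDH5, the cadherin of endothelium, had 5 regions each within 100 kb and no marked TSS, with the highest H3K4me3 in replicate 1 at 34.8 and 19.2. GCG had 4, KRT18 had 3 and TTR had 2. ALB, HBB, INS, MYOD1, SOX2 and 7 others of this list had no region. Among housekeeping genes, RPL3 and RPL7 had 4 regions each, and a region near RPL10A reached 78.4 in H3K4me3 replicate 1. That region also counted for TEAD3 in the YAP and TEAD list.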

How the data were processed

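H3K4me3, H3K27ac and CTCF ChIP-seq peaks of untreated PEFs (2 replicates each) were analysed as deposited. The authors aligned reads with Bowtie2, discarded duplicates and ran MACS2 on each library. Versions are not given in the sources used here. Per peak, the deposited files carry a score in whole numbers (not used), fold enrichment as a ratio to control, p-values and q-values as −log10, and the summit offset. The input libraries were not analysed here. The methods state a q-value of 0.01, and between 0.056% and 3.06% of a list's peaks exceeded it.

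The submitters' notes name Sscrofa11.1, and positions were read on its RefSeq annotation (28077 genes, 19487 protein-coding). Scripts used Python 3.11.15, numpy 2.4.6, pandas 2.3.3 and scipy 1.17.1 for Spearman's rho and were tested on simulated data. The fold enrichment of a region in a library is that of its strongest overlapping peak, also where the summit of that peak lies outside. Shares refer to whole lists, and no test across regions was run.

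The regions and lists were chosen with earlier results of these data known. Named were the regions highest in each mark, the widest, the largest groups (neighbours within 10 kb), those at the limits of the rule and, per list, up to 5 genes with most regions, ties going to the nearest region. Genes matched by symbol or synonym, and some that the rule names are not reported here. Alternatives are given at the end.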

Additional observations from a re-analysis of the deposited data

How the results depend on the processing

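Of 103 values under alternatives, 66 stayed within the replicate SD, the exact 95% binomial interval or, for counts, 1.5 times, and 37 moved. The binomial interval covers counting error alone and treats regions of the same libraries as independent, so this tally is only a yardstick. No paired analysis was possible because the results come from no test. The main values were 11755 regions, 16.3% with CTCF, 35.1% with an island, 14.7% with AP-1, 57.4% in introns and 56.0% with a marked nearest gene, and medians of 5.49 for H3K4me3 and 9.40 for H3K27ac. A −log10 q-value of at least 5 in all lists gave 18.6% CTCF, 41.0% islands, 13.7% AP-1, 56.0% introns and medians of 6.51 and 10.6. An overlap of 50% of the shorter peak gave 13.7% CTCF, and a CTCF summit inside the region 12.3%. Starting from H3K4me3 replicate 2 gave 36.2% islands, a distance over 10 kb gave 33.1% islands and 54.98% marked nearest genes, and protein-coding starts alone gave 37.4% islands and 56.2% introns. A stricter island (500 bp, 55% GC, ratio 0.65) was present in 13.8%. AP-1 was matched in 28.0% of windows of 250 bp on each side and in 11.4% when centred on the H3K27ac summit. The nearest protein-coding gene was marked in 73.8%. Among alternatives chosen after seeing the data, leaving out regions whose overlapping peaks came within 5 kb of a TSS gave 54.8% marked nearest genes and an H3K27ac median of 9.10. Keeping only regions that held the other 3 histone summits gave 7674 regions, 19.3% CTCF, 42.7% islands, 13.7% AP-1, 53.5% introns, 53.7% marked nearest genes and medians of 6.53 and 8.97. Leaving out 1 library at a time gave 12126 to 16750 regions, 13.8% to 17.7% CTCF, 26.2% to 36.3% islands, 14.4% to 16.4% AP-1, 56.7% to 58.8% introns, 55.4% to 56.4% marked nearest genes, and medians of 4.46 to 5.52 for H3K4me3 and 8.27 to 9.28 for H3K27ac. The highest number, the lowest CTCF and island shares and the lowest medians came without H3K4me3 replicate 1, where replicate 2 alone gave the peaks. With 2 replicates and no read counts, differences within the spread between libraries cannot be resolved.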
